A study of Mus musculus with 32 samples.

Results

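The 5 genes described here, of 41388 genes counted, are autosomal: Cramp1l and Srbd1 on chromosome 17, Rab5b on chromosome 10, Tmie on chromosome 9 and Tmem87a on chromosome 2. They were chosen by their counts in these same libraries, for a large difference between the mouse strains LG/J and SM/J with no overlap between the libraries of the strains, so the strain differences of these 5 genes are given as a description, with no test. The 32 RNA-seq libraries came from LG/J males, LG/J females, SM/J males and SM/J females, 8 in each group. All were primary chondrocytes, the cells that build cartilage, taken from femoral heads at postnatal day 21 and harvested after 4 days of culture without passaging, with no treatment named in the labels. LG/J and SM/J are inbred strains selected for large and for small body size, and LG/J is known for healing ear and cartilage wounds well. The study compared the strains, and the sexes within them, under a title on cartilage regeneration and degeneration. The labels do not say whether a library came from 1 animal or from a pool, so every p-value below measures the spread between libraries, which may be technical in part.

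The 5 genes have unrelated roles. Rab5b is a small GTPase of the Rab5 family, which switches between GTP-bound and GDP-bound forms and recruits tethering proteins and lipid kinases to early endosomes. Tmem87a is a membrane protein of the Golgi apparatus and belongs to the GOST family with Gpr107, Gpr108 and the Wnt carrier Wls. Tmie is a transmembrane subunit of the mechanotransduction complex of inner-ear hair cells, and its loss causes deafness in mice and humans. Cramp1l is the homologue of the fly Polycomb-group gene cramped, and in human cells its product drives transcription of linker histone genes. Srbd1 encodes a protein with an S1 RNA-binding domain, related to the bacterial transcription factor Tex.

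The deposited count tables held between 15840330 and 25571598 counts per library, and 16136 genes passed a filter on low counts (edgeR's filterByExpr), all 5 genes among them. The defining chondrocyte genes were abundant: the CPM (counts scaled to library size, here by the trimmed mean of M-values, TMM) of 7 chondrocyte markers summed to between 1399 and 27656 in LG/J libraries and between 7325 and 19348 in SM/J libraries. The lowest of these sums, 2346 and 1399 CPM, belonged to LG/J male 1 and LG/J female 1, where the remaining 14 libraries of that strain had 12460 to 27656 CPM. In 6 libraries, called libraries of mixed sex below, transcripts of both sexes were present at over 10 CPM: SM/J males 2 and 3 had 16.3 to 17.7 CPM of the X-inactivation RNA Xist, LG/J females 4 and 5 had 19.6 to 23.0 CPM of the Y-linked Ddx3y, and in SM/J females 3 and 4 Ddx3y reached 80.1 to 82.6 CPM. Of the libraries without this mixture, males had at most 0.606 CPM of Xist and females at most 1.26 CPM of Ddx3y. In 6 pairs of libraries from 1 group the counts lay closer together than in any other within-group pair. Their chi-square per degree of freedom was 5.82 to 8.86, against 12.9 to 1016 in the other 106 pairs. Lowest among the 106 were 12.9 (female 7 with 8, SM/J), 13.9 (male 6 with 8, SM/J) and 14.9 (male 7 with 8, LG/J). Then came 15 (male 7 with 8, SM/J), 17 (male 2 with 3, SM/J) and 35.7 (male 5 with 6, SM/J). The 6 were thus not set off by a clear gap. Pairs at 12.9 to 17 stayed separate samples where the close pairs were summed below. Every pair still differed by more than counting noise, for which the chi-square per degree of freedom is 1. That does not show that the libraries of a pair came from different animals, which the labels do not state. Each library was kept as 1 sample, so p-values may rest on libraries that are not independent.

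The stretches around the annotated starts of Tmem87a and Rab5b are shown because these genes went in opposite directions between the strains while both carry repeated short motifs at their starts. The sequences are RefSeq's for GRCm38.p6, on the minus strand, from 250 bases before to 30 bases after the annotated start. They come from the reference strain, which is neither LG/J nor SM/J, so they show no allele of the strains studied. Capitals mark matches to the motifs searched on both strands, none of which overlapped. The first motif was CCGGAAG, the core that ETS-family transcription factors bind. The second was CCAAT, bound by the trimeric factor NF-Y. Another search was for GGGCGG, the GC box of Sp1 and its relatives. The last was for TATAAA, the box that places the basal machinery in some promoters.
Tmem87a, chr2:120404087-120404366: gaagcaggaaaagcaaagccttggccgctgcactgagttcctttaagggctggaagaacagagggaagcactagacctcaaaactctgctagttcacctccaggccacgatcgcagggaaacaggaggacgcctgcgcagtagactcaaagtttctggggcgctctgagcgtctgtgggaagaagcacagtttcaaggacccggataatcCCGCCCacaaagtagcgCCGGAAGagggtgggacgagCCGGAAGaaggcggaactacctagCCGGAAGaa
Rab5b, chr10:128696239-128696518: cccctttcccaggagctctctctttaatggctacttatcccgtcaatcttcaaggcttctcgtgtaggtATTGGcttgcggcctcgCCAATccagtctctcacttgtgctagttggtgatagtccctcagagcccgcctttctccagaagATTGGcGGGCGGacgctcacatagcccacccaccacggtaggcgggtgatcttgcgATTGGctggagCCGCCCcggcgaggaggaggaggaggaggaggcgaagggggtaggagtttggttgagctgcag
Tmem87a had 3 matches to CCGGAAG, in a cluster beside 1 GC box. Of 32851 RefSeq promoter windows of 300 bases, 8.86% held at least 1 CCGGAAG and 0.213% at least 3. Rab5b had 4 matches to CCAAT and 2 GC boxes, and 1.06% of the windows held at least 4 CCAAT and 19.5% at least 2 GC boxes. The Tmie window held 3 GC boxes, a number that 10.7% of windows reached, and was rich in CpG, with 39 of these dinucleotides against a median of 7 over all windows. The Cramp1l window held none of the 4 motifs, and Srbd1 was not among the promoters used. The motifs were chosen after the sequences had been read, and a match here is a run of letters only.

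Of all genes tested, 423 of 16136 (2.62%) showed no overlap between the 16 LG/J and the 16 SM/J libraries, 220 of them higher and 203 lower in LG/J, with a median absolute log2 fold change of 1.93. The 5 genes lay inside the upper part of this set without leading it: by size, Tmie ranked 69, Rab5b 86, Tmem87a 95, Cramp1l 100 and Srbd1 122 of 423. Their nearest neighbours in this ranking were close in size, such as Gpr157 at a log2 fold change of -3.08 above Srbd1 at 3.07 and Gm9752 at 3.06 below it.

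Cramp1l, on the minus strand at chr17:24961228-25015230 (GRCm38), was high in LG/J chondrocytes, with a lowest, median and highest library of 83.2, 95.0 and 109 CPM, against 6.51, 8.28 and 10.4 CPM in SM/J chondrocytes. The mean was 94.7 ± 7.78 CPM in LG/J, against 8.4 ± 1.19 CPM in SM/J (± SD over 16 libraries each), and the log2 fold change was 3.50 ± 0.05 (SE), an 11.3-fold difference. The lowest LG/J library stood 7.99 times above the highest SM/J library. Per length, the medians were 12.6 RPKM (CPM divided by gene length in kilobases, as deposited) in LG/J and 1.11 RPKM in SM/J, so the gene was not silent in SM/J, where libraries held 128 to 240 of its counts. Within groups Cramp1l varied little: its SD on the log2 CPM scale was 0.124, and 2.64% of 3869 genes of similar level had a lower one.

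Srbd1, on the minus strand at chr17:85984665-86145175, lies on the same chromosome as Cramp1l but far from it. Its LG/J libraries ran from 20.8 CPM through a median of 33.3 CPM to 39.4 CPM, against 2.60, 3.84 and 4.87 CPM in SM/J. The means were 32.5 ± 4.94 CPM in LG/J, against 3.87 ± 0.58 CPM in SM/J (± SD over 16 libraries each), a log2 fold change of 3.07 ± 0.09. This was the smallest strain difference of the 5 genes, 8.40-fold, and SM/J kept 11.9% of the LG/J level. Both of the lowest LG/J values came from LG/J male 1 and LG/J female 1, at 20.8 and 22.8 CPM, while the other 14 LG/J libraries lay between 28.8 and 39.4 CPM. Deviations of Srbd1 from its group means followed the 7 chondrocyte markers, with Pearson's r of 0.72 to 0.76 on log2 CPM over 32 libraries, in each of which both genes carry the same depth and scaling. With those 2 libraries left out the range was 0.44 to 0.58 over 30 libraries. Of the 7 markers 3 were called higher in LG/J, where 16.4% of all genes were called higher and 13.5% lower: Acan by 0.94 ± 0.35, Sox9 by 0.47 ± 0.15 and Hapln1 by 1.0 ± 0.27 (edgeR, adjusted p = 0.0443, 0.0163 and 0.00434). The part of the chondrocyte markers in the strain difference was not tested; without both libraries the log2 fold change of Srbd1 was 3.14.

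Rab5b, on the minus strand at chr10:128677193-128696268, had 47.4, 62.3 and 81.2 CPM as its lowest, median and highest LG/J library, against 3.66, 4.44 and 6.34 CPM in SM/J. Its means were 61.1 ± 8.30 CPM in LG/J, against 4.49 ± 0.684 CPM in SM/J (± SD over 16 libraries each), and the log2 fold change of 3.77 ± 0.07 made a 13.6-fold difference. All 16 LG/J libraries stood above all SM/J libraries, the nearest ones by a factor of 7.47. LG/J male 1 and LG/J female 1 were this time the highest, at 73.6 and 81.2 CPM, above the 47.4 to 66.0 CPM of the other 14 LG/J libraries. Rab5b has an annotated processed copy, Gm13991, which matches it over 648 bases at 99.4% identity, so reads could be split between them. Gm13991 held 0.243 ± 0.131 CPM in LG/J, against 0.657 ± 0.205 CPM in SM/J, and the strain difference of the summed counts was 3.58 on the log2 scale. No other gene of the 5 had an annotated copy at 90% identity over 300 bases and 50% of the shorter transcript.

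Tmem87a, on the minus strand at chr2:120355312-120404113, ran the other way. Its LG/J libraries held 7.55, 9.40 and 12.1 CPM as the lowest, median and highest, against 98.6, 114 and 134 CPM in SM/J. The means were 9.66 ± 1.66 CPM in LG/J, against 115 ± 8.18 CPM in SM/J (± SD over 16 libraries each), a log2 fold change of -3.57 ± 0.07. LG/J thus held 8.42% of the SM/J level, and the lowest SM/J library was 8.18 times the highest LG/J library. LG/J libraries still held 124 to 260 counts of Tmem87a, with a median of 1.28 RPKM, against 15.1 RPKM in SM/J.

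Tmie, on the minus strand at chr9:110865711-110880113, had the largest fold and by far the widest spread. Its LG/J libraries ran from 12.1 CPM through a median of 36.9 CPM to 109 CPM, against 1.03, 2.16 and 7.03 CPM in SM/J. The means were 46.7 ± 30.8 CPM in LG/J, against 2.74 ± 1.70 CPM in SM/J (± SD over 16 libraries each), and the log2 fold change was 4.12 ± 0.32. The libraries did not overlap, but only a factor of 1.72 lay between the lowest LG/J and the highest SM/J library. Within a strain the highest library stood 8.99 times above the lowest in LG/J and 6.83 times in SM/J, and 93.3% of genes of similar level had a smaller SD within groups. SM/J females 3 and 4, which carry transcripts of both sexes and form one of the close pairs, held 7.03 and 6.77 CPM, while the other 14 SM/J libraries lay between 1.03 and 2.96 CPM. With the 6 libraries of mixed sex removed, the log2 fold change was 4.51.

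**Figure D1:**
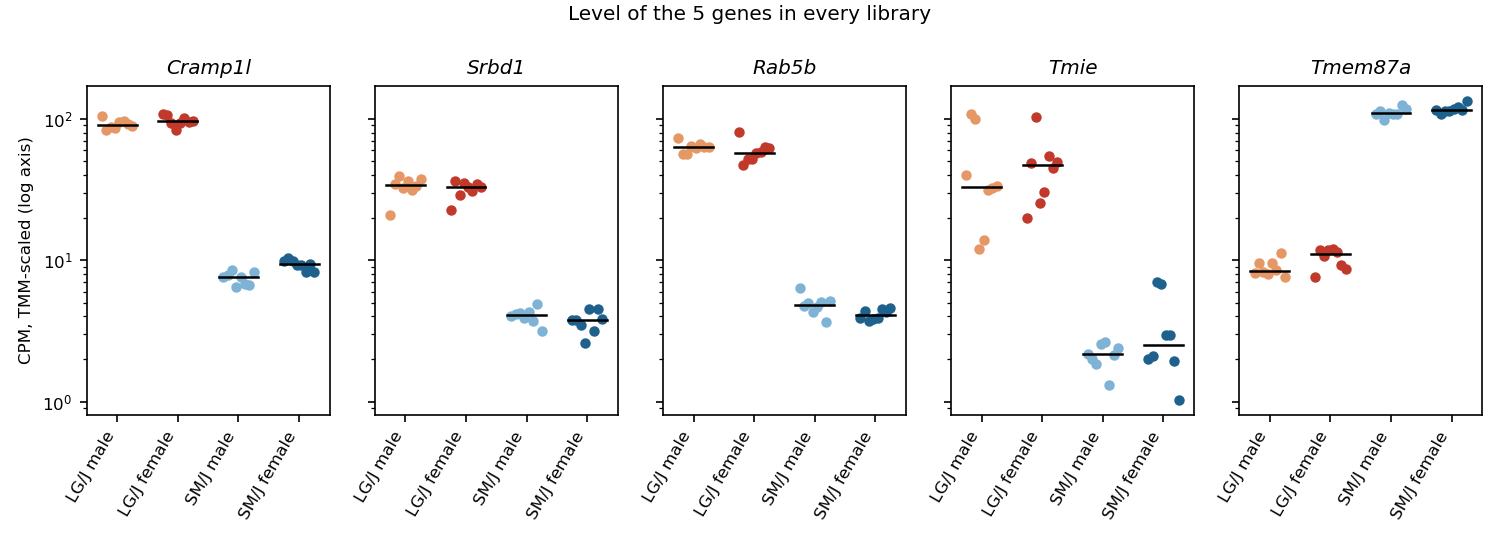
Level of the 5 genes in each of the 32 libraries, in TMM-scaled CPM on a log axis, with 1 point per library and a line at the median of each group of 8. Cramp1l, Srbd1, Rab5b and Tmie are high in LG/J and Tmem87a is high in SM/J, with no overlap between strains; Tmie spans 12.1 to 109 CPM in LG/J and 1.03 to 7.03 CPM in SM/J.

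The strain differences had the same direction in each sex taken alone, which the choice of genes without overlap had fixed in advance. Only their sizes are described here. In males the log2 fold changes were 3.62 ± 0.07 for Cramp1l, 3.04 ± 0.13 for Srbd1, 3.70 ± 0.10 for Rab5b, 4.44 ± 0.47 for Tmie and -3.65 ± 0.09 for Tmem87a. In females they were 3.39 ± 0.07, 3.10 ± 0.13, 3.84 ± 0.10, 3.81 ± 0.45 and -3.49 ± 0.09 in the same order. The difference between males and females in the strain contrast was tested as an interaction in edgeR's quasi-likelihood fit over all genes, where 0.0062% of genes passed an adjusted p of 0.05. None of the 5 genes passed it in edgeR or in DESeq2. Cramp1l came nearest in edgeR, with a difference of 0.23 ± 0.09 (unadjusted p = 0.0226, adjusted p = 0.481), and it was the 1 gene of the 5 with an unadjusted p under 0.05.

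Cramp1l was lower in males than in females, and it was the 1 gene of the 5 called for sex over both strains, where 3.46% of all genes were called. Its log2 fold change, male minus female, was -0.20 ± 0.05 (edgeR, adjusted p = 0.0173). In SM/J, where 5.76% of genes were called for sex, Cramp1l held 7.49 ± 0.765 CPM in males and 9.31 ± 0.759 CPM in females (± SD over 8 libraries each), a log2 fold change of -0.31 ± 0.07 (edgeR, adjusted p = 0.00557). The SM/J males ran from 6.51 to 8.56 CPM and the SM/J females from 8.22 to 10.4 CPM, so the sexes met only at the edge. In LG/J it held 91.8 ± 6.68 CPM in males and 97.5 ± 8.17 CPM in females (± SD over 8 libraries each), a difference of -0.09 ± 0.07 that edgeR did not call (adjusted p = 0.914). The call in SM/J held with the 6 libraries of mixed sex removed, at -0.36 (edgeR, adjusted p = 0.00931). The call over both strains was lost when the close pairs were summed (-0.20, adjusted p = 0.107) and without the filter on low counts (-0.19, adjusted p = 0.0944).

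The other 4 genes were not called for sex. Over both strains, male minus female, Srbd1 differed by 0.09 ± 0.08 (edgeR, adjusted p = 0.579), Rab5b by 0.16 ± 0.07 (adjusted p = 0.174), Tmie by -0.34 ± 0.29 (adjusted p = 0.576) and Tmem87a by -0.16 ± 0.06 (adjusted p = 0.137). In LG/J alone, where 0.0496% of genes were called for sex, none of the 5 genes was called in edgeR or DESeq2, nor in edgeR with the library number as a block within LG/J. Before adjustment Tmem87a alone was under 0.05 there in edgeR's test across all genes (adjusted p = 0.786, with a male minus female difference of -0.24 ± 0.09). The standard error of the sex difference of Tmie, 0.40 in LG/J and 0.44 in SM/J, was the largest of the 5 genes in both strains.

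**Figure D2:**
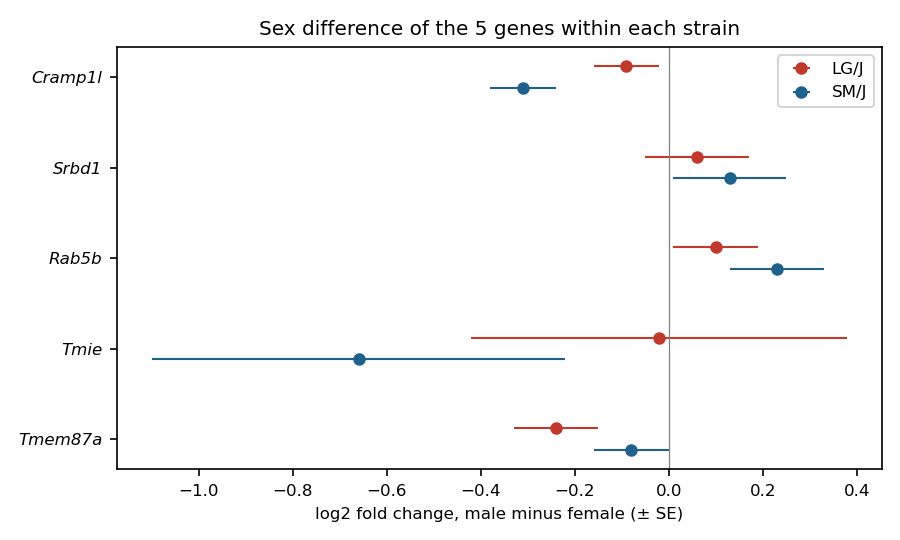
Sex difference (log2 fold change, male minus female, with its standard error) of the 5 genes within LG/J and within SM/J, from the fit over all 32 libraries. Cramp1l in SM/J, at -0.31, was the 1 called difference; Tmie has the longest error bars.

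Genes close to the 5 were examined next, to see whether the strain difference of each gene stands alone in its stretch of chromosome. Within 200 kb of the 5 genes 81 other genes are annotated, and 55 passed the filter. Of these, 27 were called for strain in edgeR (49.1%), 14 higher and 13 lower in LG/J, against 29.9% of all genes tested. The median absolute log2 fold change of the 55 was 0.29, against 0.21 over all genes. A 2-fold difference was reached by 7 of the 55, where 8.67% of all genes tested (1399 of 16136) reached it. The Rab5b locus held 14 of the 27 calls among its 22 genes, and in the other 4 loci 13 of 33 genes (39.4%) were called. None of these 33 lacked overlap between the strains. Of all genes tested 2.62% lacked it, so a count of none among 33 does not set these loci apart. With a window of 100 kb, 16 of 30 genes were called, and with 500 kb, 50 of 123. Of the 27 called neighbours 10 (Fahd1, Jpt2, A430046D13Rik, Rpl41, Cdk2, Pym1, Ormdl2, Vps39, Capn3 and Snap23) lost the call under at least 1 alternative setting or with 1 library left out; all of them but Capn3 differed by at most 1.39-fold.

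Around Cramp1l 5 of 16 genes were called, 3 higher and 2 lower in LG/J. The flanking genes lie less than 1 kb from it on both sides and differed little. Ift140, a subunit of the intraflagellar transport complex that builds cilia, starts 0.9 kb away and held 21.4 ± 4.37 CPM in LG/J, against 17.1 ± 4.77 CPM in SM/J (± SD over 16 libraries each), a log2 fold change of 0.36 ± 0.09 (edgeR, adjusted p = 0.00345). Jpt2 lies 0.6 kb away on the other side and differed by -0.29 ± 0.11 (edgeR, adjusted p = 0.0342), a call lost without LG/J male 1, LG/J male 7, SM/J female 5 or SM/J male 8; it has near-identical copies. The largest called difference was that of Mapk8ip3, a kinase scaffold and motor adaptor, at 0.84 ± 0.13 (edgeR, adjusted p = 2.85e-06). Spsb3 differed by 0.36 ± 0.09 (edgeR, adjusted p = 0.00329) and Fahd1 by -0.20 ± 0.07 (edgeR, adjusted p = 0.0446). The Fahd1 call did not survive in 16 of 32 fits with 1 library removed. No neighbour came near the 11.3-fold of Cramp1l.

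Srbd1 stands in a gene-poor stretch: 3 genes lie within 200 kb and 1 passed the filter. That gene, Prkce, a protein kinase C isoform 22.6 kb away, held 5.05 ± 1.29 CPM in LG/J, against 5.44 ± 1.48 CPM in SM/J (± SD over 16 libraries each). Its difference of -0.08 ± 0.13 was not called (edgeR, adjusted p = 0.681).

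Rab5b has the neighbourhood with the most strain differences, 14 of 22 genes called (63.6%), 5 higher and 9 lower in LG/J. Its nearest neighbours on both sides moved slightly the other way: Cdk2, a cell-cycle kinase 1.7 kb away, by -0.29 ± 0.09 (edgeR, adjusted p = 0.019), and Suox, the mitochondrial sulphite oxidase 3.3 kb away, by -0.20 ± 0.06 (edgeR, adjusted p = 0.014). Rps26, Pmel, Myl6b and Sarnp, 4 of the 22 genes, were without overlap between strains, against 2.62% of all genes tested. Pmel, a pigment-cell structural protein 10.0 kb away, held 1.06 ± 0.427 CPM in LG/J, against 5.04 ± 1.5 CPM in SM/J (± SD over 16 libraries each), a log2 fold change of -2.24 ± 0.16 (edgeR, adjusted p = 6.10e-13). Myl6b, a myosin light chain, differed by -1.32 ± 0.13 (edgeR, adjusted p = 1.72e-09).

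Rps26, a protein of the small ribosomal subunit 50.7 kb from Rab5b, differed by more than Rab5b itself. It held 212 ± 46.1 CPM in LG/J, against 4.28 ± 0.781 CPM in SM/J (± SD over 16 libraries each), a log2 fold change of 5.63 ± 0.12 (edgeR, adjusted p = 2.04e-27). Reads of Rps26 can also be placed on 2 near-identical pseudogenes, Rps26-ps1 and Gm6654, which together ran the other way, with 0.544 ± 0.171 CPM in LG/J, against 123 ± 15.9 CPM in SM/J (± SD over 16 libraries each). Gene and copies together gave 213 CPM in LG/J, against 128 CPM in SM/J, a log2 ratio of 0.74. Sarnp shows the same arithmetic with its copy Gm6563: alone it differed by 0.72 ± 0.06 (edgeR, adjusted p = 3.85e-12), and the log2 ratio of the summed means was 0.03. Their strain differences are therefore uncertain. Rab5b had a strain difference of 3.58 on the log2 scale when summed with its annotated copy, against 3.77 alone. That sum covers only a copy annotated in the reference, and alleles or copies that the reference lacks were not tested. The other called genes near Rab5b were Dgka (0.66 ± 0.15), Erbb3 (-0.76 ± 0.25), Ikzf4 (-0.59 ± 0.15), Myl6 (-0.46 ± 0.09, with copies), A430046D13Rik (0.47 ± 0.17), Rpl41 (0.29 ± 0.08, with a copy), Pym1 (-0.23 ± 0.06) and Ormdl2 (-0.22 ± 0.07). The lincRNA A430046D13Rik lost its call without LG/J male 1 or without LG/J female 1.

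Around Tmem87a 3 of 6 genes were called, where 29.9% of all genes were, and all 3 were higher in LG/J, against the direction of Tmem87a. None of the 3 kept its call with the 6 libraries of mixed sex removed (edgeR, adjusted p = 0.0627 for Vps39, 0.242 for Snap23 and 0.0696 for Capn3). Vps39, a subunit of the HOPS tethering complex of late endosomes 2.2 kb away, differed by 0.23 ± 0.07 (edgeR, adjusted p = 0.0158). Snap23, a SNARE protein of membrane fusion, differed by 0.20 ± 0.06 (edgeR, adjusted p = 0.0189), and Capn3, a calpain protease at under 1 CPM in both strains, by 1.07 ± 0.33 (edgeR, adjusted p = 0.014). Ganc, a glucosidase gene on the opposite strand at chr2:120403896-120461700, overlaps the start of Tmem87a and shares 209 exonic bases with it, which is 2.78% of the exonic length of Tmem87a. Ganc held 27.3 ± 4.52 CPM in LG/J, against 24.0 ± 5.55 CPM in SM/J (± SD over 16 libraries each), a difference of 0.19 ± 0.10 that was not called (edgeR, adjusted p = 0.15), though it was called without SM/J male 1 (0.25, adjusted p = 0.0288). The difference of Ganc, which starts inside Tmem87a, was far smaller than the 11.9-fold of Tmem87a. As the strand setting is not known, reads in the 209 shared bases cannot be assigned to either gene. Per length, the ratio of Tmem87a to Ganc ran from 0.294 to 0.662 in LG/J and from 3.68 to 8.24 in SM/J, without overlap.

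Around Tmie 5 of 10 genes were called, 3 higher and 2 lower in LG/J. Als2cl, on the opposite strand at chr9:110879870-110900530, overlaps the start of Tmie and shares 244 exonic bases with it, 8.71% of the exonic length of Tmie and 4.17% of its own. The RefSeq promoter window of Tmie shares 200 and 252 of its 300 bases with the 2 windows listed for Als2cl. Als2cl held 10.6 ± 3.57 CPM in LG/J, against 6.93 ± 4.51 CPM in SM/J (± SD over 16 libraries each), a log2 fold change of 0.65 ± 0.21 (edgeR, adjusted p = 0.0171). Its libraries overlapped between strains: 4.99, 9.76 and 19.1 CPM were the lowest, median and highest in LG/J, against 3.69, 5.26 and 18.6 CPM in SM/J. The highest SM/J values of Als2cl, 18.6 and 17.4 CPM, came from SM/J females 3 and 4, the libraries highest in Tmie. Whether counting used strand is not given in the sources used here, so reads in the shared bases cannot be assigned to one gene. Tmie and Als2cl deviated together from their group means, with r = 0.74 over 32 libraries (0.67 in LG/J and 0.89 in SM/J); without the 2 libraries farthest from the median of Als2cl in each strain, r was 0.44 in LG/J and 0.71 in SM/J. When the counts of both genes were summed, the strain difference was 2.60 on the log2 scale, and for Tmem87a summed with Ganc it was -1.91.

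The other called genes near Tmie were Pth1r, the receptor for parathyroid hormone and a regulator of growth-plate chondrocytes, at 150 ± 61.9 CPM in LG/J, against 85.0 ± 23.1 CPM in SM/J (± SD over 16 libraries each; log2 fold change 0.82 ± 0.23; edgeR, adjusted p = 0.00782), and Ccdc12 (0.67 ± 0.13). Prss42, a serine protease, and Ltf, lactoferrin, fell in LG/J by 4.27 ± 0.63 and by 2.52 ± 0.64 on the log2 scale (edgeR, adjusted p = 2.47e-06 and 0.00287). Both were scarce, with means of 0.0662 CPM in LG/J, against 1.58 CPM in SM/J for Prss42 and of 0.141 CPM in LG/J, against 0.841 CPM in SM/J for Ltf, and libraries of both strains reached 0 for either gene. With the 6 libraries of mixed sex removed, the log2 fold change of Prss42 was -3.02 (edgeR, adjusted p = 0.000133).

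**Figure D3:**
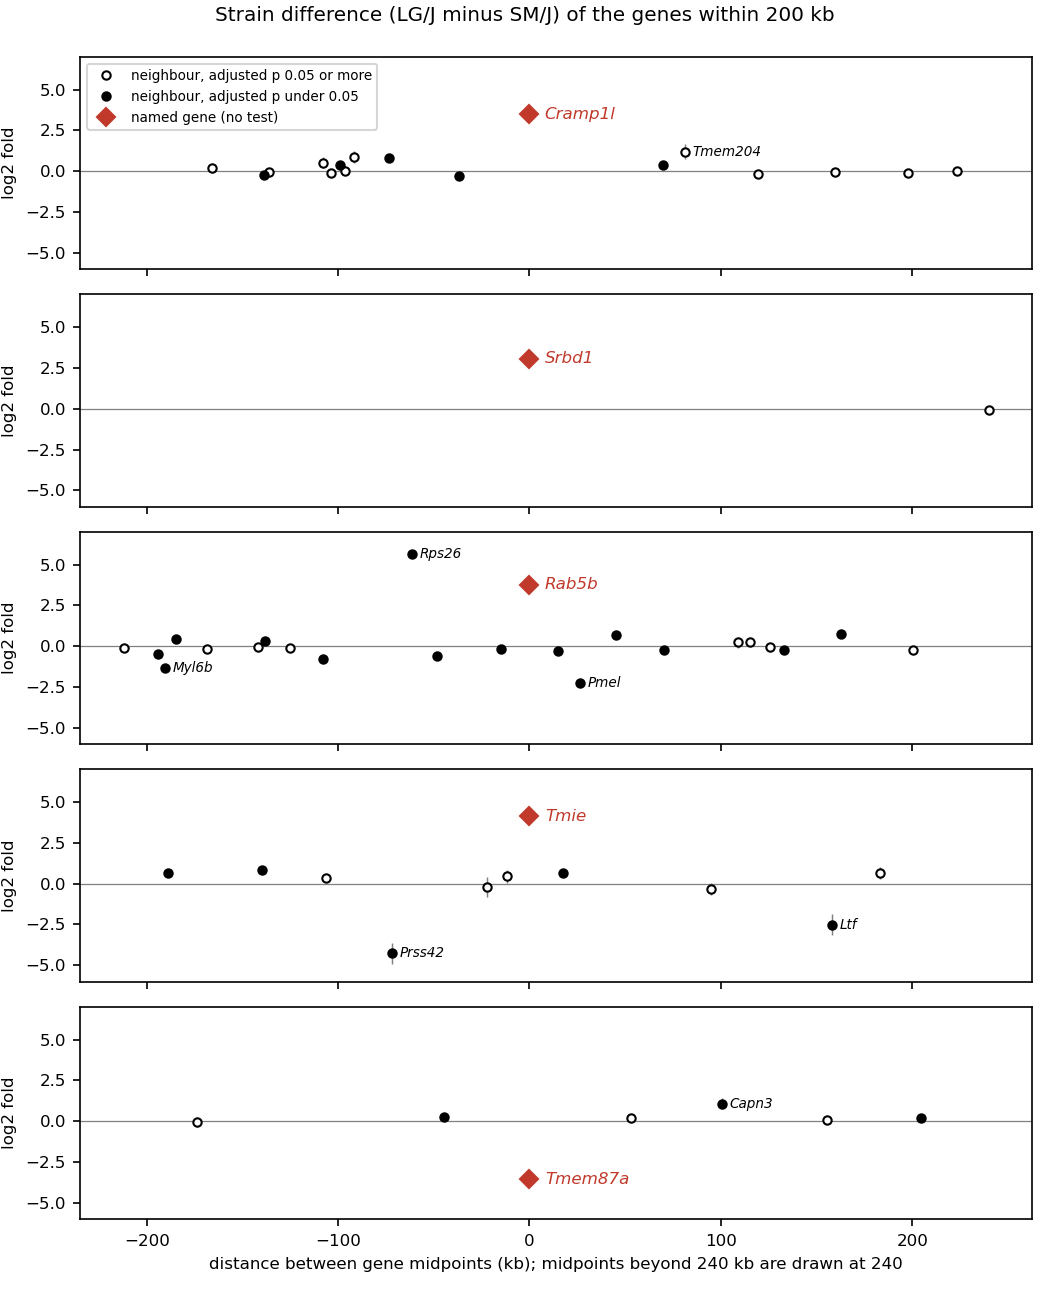
Strain difference (log2 fold change, LG/J minus SM/J, with standard errors) of the genes within 200 kb of each of the 5 genes, against the distance between gene midpoints in kb. Filled circles are neighbours with an adjusted p under 0.05, open circles the other neighbours, and diamonds the 5 genes, which were not tested; Rps26 at 5.63 is the only neighbour beyond the named gene of its own locus in the same direction.

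The wide spread of Tmie ran with an osteoblast transcription factor. Among 11386 genes compared, the deviations of Tmie from its 4 group means on the log2 CPM scale were most like those of Sp7 (osterix, which commits cells to bone formation), with r = 0.92 over 32 libraries, then Epha2 (0.89) and Creb3l1 (0.85). Sp7 was picked as the most alike over these same libraries, so the r within each strain, 0.97 in LG/J and 0.85 in SM/J, only describes it. Without the 2 libraries farthest from the median of Sp7 it was 0.95 in LG/J and 0.65 in SM/J (14 libraries each). The highest SM/J values of Sp7, 37.9 and 33.4 CPM, came from females 3 and 4, the close pair highest in Tmie. In each library both genes carry the same depth and scaling, and some libraries belong to close pairs. Sp7 itself overlapped widely between strains, with 8.16, 19.8 and 46.3 CPM as the lowest, median and highest in LG/J, against 8.18, 13.6 and 37.9 CPM in SM/J, and was not called for strain (0.59 ± 0.23; edgeR, adjusted p = 0.058).

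The rest of the 7 fibroblast and osteoblast markers followed Tmie less closely, with r of 0.61 for Col1a1, 0.51 for Col1a2, 0.39 for Ibsp, 0.11 for Bglap, 0.09 for Thy1 and 0.08 for Col3a1. The summed level of the 7 markers ran from 333 to 4762 CPM in LG/J and from 1085 to 5706 CPM in SM/J, and 1 of 7, Thy1, was called for strain in edgeR, against 29.9% of all genes (2.57 ± 0.34; edgeR, adjusted p = 4.31e-07; 0.643 ± 0.311 CPM in LG/J, against 0.103 ± 0.0968 CPM in SM/J). The r of Tmie was -0.27 to 0.14 with the 7 chondrocyte markers and -0.35 to -0.12 with the 7 macrophage markers. Without LG/J male 1 and LG/J female 1 these ranges were -0.6 to -0.08 and -0.36 to 0.03 over 30 libraries. Of the macrophage markers edgeR called 1, Fcgr1, lower in LG/J (-2.68 ± 0.68, adjusted p = 0.00313). The 7 macrophage markers summed to between 14 and 591 CPM in LG/J and between 45.1 and 702 CPM in SM/J. DESeq2 called 3 of the fibroblast and osteoblast markers and 4 of the macrophage markers for strain. Endothelial, muscle and lymphocyte markers summed to at most 7.27, 13.8 and 1.33 CPM in LG/J, against 8.03, 17 and 0.736 CPM in SM/J. Their part in the strain difference of Tmie was not tested. In these bulk libraries fewer cells that express Tmie and less Tmie RNA per cell cannot be told apart. Hair cells, the cells Tmie is best known from, left almost no trace: of 5 hair-cell markers 1 passed the filter, and their summed level was at most 2.52 CPM in LG/J, against 2.66 CPM in SM/J.

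**Figure D4:**
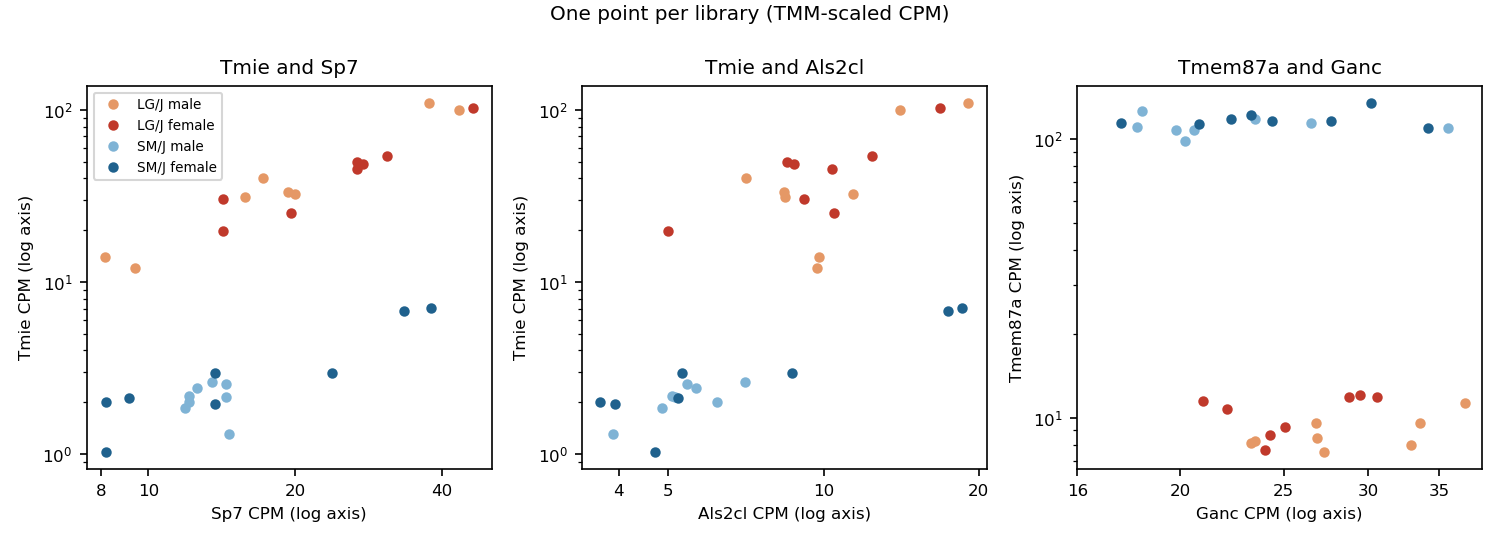
Tmie against Sp7, Tmie against Als2cl and Tmem87a against Ganc, in TMM-scaled CPM on log axes, with 1 point per library. In the Sp7 and Als2cl panels Tmie climbs with its partner in both strains, and Tmem87a shows 1 cluster per strain along Ganc.

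The other 4 genes had other partners by the same measure, deviations from the group means over 32 libraries. Srbd1 was most like Tcea1 (0.82), Ciart (0.81) and Rab39b (0.81), and Rab5b most like Ezh1 (0.77), Slc2a3 (0.75) and Lhfpl2 (0.75). Cramp1l was most like Ice1 (0.69), D11Wsu47e (0.66) and Git1 (0.66), and Tmem87a most like Rpl39-ps (0.71), Hnrnpu (0.67) and Xpr1 (0.65). Among themselves the 5 genes did not move as one within groups, with r from -0.50 for Rab5b and Tmem87a to 0.36 for Cramp1l and Rab5b. Over all 32 libraries, where the strain split dominates, the closest genes were at r of 0.99 for every gene but Tmie. These were Gm13394, Rab5b and Vcp-rs for Cramp1l, Gm9625, Gm8199 and Gm8730 for Srbd1, Gm13394, Cramp1l and Rplp0-ps1 for Rab5b, and Gm11942, Rpl14 and Rps26-ps1 for Tmem87a. All but Rab5b, Cramp1l and Rpl14 among them are annotated as pseudogenes. For Tmie they were Cpa6, Atp10d and Pfas at r of 0.96.

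Genes that work with each of the 5 were examined as lists chosen with earlier results of these data known, against a background of 16.4% of all genes called higher and 13.5% called lower in LG/J. Of 29 further genes of the Rab5 cycle 9 were higher and 2 lower in LG/J, with a median log2 fold change of 0.07 against 0.02 over all genes. The GTPase-activating protein Usp6nl was higher (0.94 ± 0.11; edgeR, adjusted p = 7.08e-08), as were the effectors Eea1 (0.43 ± 0.07; adjusted p = 1.27e-05) and Rbsn (0.31 ± 0.06; adjusted p = 0.000123). Of the paralogues, Rab5c held 27.0 ± 4.28 CPM in LG/J, against 34.2 ± 4.44 CPM in SM/J and was lower (-0.34 ± 0.08; edgeR, adjusted p = 0.000719), while Rab5a held 8.64 ± 1.85 CPM in LG/J, against 8.52 ± 1.07 CPM in SM/J (0.02 ± 0.09; edgeR, adjusted p = 0.848).

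Of 5 further GOST-family genes measured beside Tmem87a none was called in edgeR or DESeq2, with a median of -0.12 in edgeR, and the paralogue Tmem87b held 46.9 ± 5.39 CPM in LG/J, against 47.2 ± 7.77 CPM in SM/J. Before adjustment Gpr108 and Gpr180 were under 0.05 (edgeR, adjusted p = 0.0853 and 0.0921). Of 20 genes of Golgi structure 5 were higher and 1 lower in LG/J, with a median of 0.10. The stacking protein Gorasp1 was lower (-0.63 ± 0.07; edgeR, adjusted p = 3.91e-08), and the golgins Golgb1 (0.44 ± 0.08; adjusted p = 3.67e-05) and Golga4 (0.22 ± 0.05; adjusted p = 0.00185) were higher.

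Beside Tmie, 6 of 12 further genes of hair-cell mechanotransduction passed the filter, with 1 higher, 1 lower and a median of -0.03. Cdh23, a tip-link cadherin, was higher (0.75 ± 0.28; edgeR, adjusted p = 0.0379) and the calcium-binding subunit Cib2 lower (-0.85 ± 0.24; adjusted p = 0.00741). Cdh23 was scarce, at 1.27 ± 0.603 CPM in LG/J, against 0.75 ± 0.472 CPM in SM/J. Tmc1, the channel subunit that Tmie binds, held 0.428 ± 0.245 CPM in LG/J, against 0.513 ± 0.187 CPM in SM/J. Of 6 linker histone genes beside Cramp1l, 1 was higher and 2 lower in LG/J, with a median of -0.34: Hist1h1c held 123 ± 35.6 CPM in LG/J, against 180 ± 23.6 CPM in SM/J (-0.55 ± 0.13; edgeR, adjusted p = 0.00102), Hist1h1a differed by -1.0 ± 0.25 (adjusted p = 0.0027) and Hist1h1e by 0.46 ± 0.16 (adjusted p = 0.0257). Of 8 further genes with S1 or YqgF-type domains beside Srbd1, the elongation factor Supt6 was higher (0.27 ± 0.06; edgeR, adjusted p = 0.000553) and none was lower, with a median of -0.09. The largest difference on these partner lists, that of Hist1h1a, was -1.0 on the log2 scale, while the smallest of the 5 genes was 3.07. Hist1h1a was scarce, at 0.456 ± 0.303 CPM in LG/J, against 0.897 ± 0.262 CPM in SM/J, so its difference rests on few counts.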

How the data were processed

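RNA from 32 chondrocyte cultures was made into Clontech SMARTer libraries, per the labels' protocols, and STAR 2.0.4b, Subread and featureCounts 1.45 with build GRCm38 are named in the submitters' processing notes. Roles of the tools, annotation release and strand setting are not stated in the sources used here. Both strains were counted on 1 build, so alleles that differ from it could lower a count; this was not analysed here. The authors deposited whole-number counts per gene for each library, with CPM (scaled to library size) and RPKM (also to gene length) beside them, per the file headers. Deposited RPKM was used for levels per length; the deposited CPM was not used.

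Gene names and types came from GENCODE M21, and positions, strands and exons from the deposited count tables. In edgeR 4.0.16 genes were filtered by filterByExpr, scaled by TMM and fitted with 4 group means over all 32 libraries, and 16136 genes were tested by the quasi-likelihood F test with Benjamini-Hochberg adjustment over all of them (called under 0.05). CPM printed is TMM-scaled; log2 CPM used a prior count of 2, and fold changes are edgeR's. Near-identical copies, other protein-coding genes left out, were found with blastn 2.17.0. Alternatives were DESeq2 1.42.0, other scaling, no filter, a block on library number, libraries left out or summed, other windows, and sums over copies or overlapping genes. The model was tested on simulated counts with independent libraries and no close pairs. It recovered 56% of 1.5-fold and 77% of 2-fold strain changes, and 65% and 79% of such sex changes. A gene that was not called may therefore still differ. The labels do not say that library numbers pair groups, but all 8 same-numbered pairs of LG/J males and females had r over 0.1 (0.11 to 0.93) in their deviations from group means, so a block within LG/J was added after seeing the data; between the other groups at most 6 of 8 pairs did. Libraries held 15840330 to 25571598 counts, and the errors given are spreads over libraries, counting error included.

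The 5 genes and all lists were chosen with earlier results of these data known. Genes named are the 5, their overlapping and called neighbours, copies, up to 3 called genes with the smallest p per list, and the 3 most alike in each measure; Rab5a, Rab5c, Prkce, Tmem87b, Tmc1, Gpr108, Gpr180, genes beside the 5 in rank and uncalled markers were added after their values were seen.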

Additional observations from a re-analysis of the deposited data

Results flagged for a closer look

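Within groups of 8, the highest or lowest library of a named gene was compared with the nearest other one by Dixon's gap ratio. By this rule 14 of 132 groups stood out. The threshold passes about 1 in 20 groups of independent normal values. These were CPM of genes measured in the same libraries, so that rate need not hold here. Of the 14, 7 were LG/J male 1 or LG/J female 1. In LG/J male 1 these were Srbd1 at 20.8 CPM (next library 31.6), Mapk8ip3 at 59.6 CPM (next 37.7) and A430046D13Rik at 6.38 CPM (next 3.87). In LG/J female 1 they were Rab5b at 81.2 CPM (next 62.8), Mapk8ip3 at 72.0 CPM (next 38.7), A430046D13Rik at 6.78 CPM (next 3.18) and Pth1r at 22.6 CPM (next 140). Tmie was high in LG/J female 3 at 103 CPM (next 54.2). LG/J female 2 was high in Pym1 at 14.6 CPM (next 11.3), Snap23 at 220 CPM (next 173) and Ltf at 0.526 CPM (next 0.185). The remaining ones were Pmel in LG/J female 7 at 1.97 CPM (next 1.04), Ift140 in SM/J female 2 at 26.6 CPM (next 21.9) and Ltf in SM/J female 8 at 4.95 CPM (next 2.23).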

How the results depend on the processing

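Of 1888 values from fits that left out 1 library 1795 kept direction and call (counts, within 1.5 times), as did 498 of 550 from other alternatives. No called difference changed sign; 13 values of uncalled ones did. With the 6 libraries of mixed sex removed these were the sex difference of Tmie in SM/J (0.01, adjusted p = 0.997) and the interactions of Tmie (-0.21, adjusted p = 0.937) and Srbd1 (0.09, adjusted p = 0.9). With 1 library left out they were the sex difference of Tmie in LG/J, over a range of -0.32 to 0.25, and the interaction of Srbd1, -0.12 to 0.01. The strain differences of Cramp1l, Srbd1 and Rab5b, whose direction was set by the choice of genes, lay within 3.48 to 3.55, 3.02 to 3.14 and 3.58 to 3.80. Those of Tmie and Tmem87a fell in size to 2.60 and -1.91 when summed with Als2cl and Ganc, by construction of the sum, since the partner adds counts to both strains. The neighbours called numbered 27, against 16 within 100 kb and 50 within 500 kb. The 558 genes called for sex over both strains became 123 with no filter, 1029 in DESeq2, 1052 with the replicate block, 922 without both LG/J libraries numbered 1, 31 with close pairs summed (fewer samples) and 314 to 963 with 1 library left out. Cramp1l for sex over both strains was lost with no filter (-0.19, adjusted p = 0.0944) and with close pairs summed (-0.20, adjusted p = 0.107), over an adjusted p range of 0.00393 to 0.107; in SM/J it was kept in all 40 alternatives (adjusted p 0.00279 to 0.0365). The 8 genes called for sex in LG/J became 4 with library size only, 20 in DESeq2, 3 with close pairs summed and 4 to 9 with 1 library left out. The 929 called in SM/J became 388 with no filter, 1433 with the replicate block, 1402 without both LG/J libraries numbered 1, 490 with the 6 libraries of mixed sex removed, 184 with close pairs summed and 532 to 1410 with 1 library left out. The 1 gene called for the interaction became 0 with library size only, no filter, the replicate block, with the 6 libraries of mixed sex removed or with close pairs summed, 55 in DESeq2 and 0 to 23 with 1 library left out. DESeq2 called 3 fibroblast and osteoblast markers, 4 macrophage markers and 1 hair-cell marker for strain, against 1, 1 and 0 in edgeR. Over all genes it called 5151 for strain, against 4826 in edgeR. The cause of these shifts was not tested. With the library number as a replicate block within LG/J, where same-numbered libraries deviated together, 9 genes were called for sex there and no call of the 5 genes changed. Over all groups, where r between same-numbered libraries ran from -0.71 to 0.93 and 10 of 32 libraries correlated best with their own number, 30 neighbours were called with the replicate block.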
